A study of Mus musculus with 6 samples.

Results

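The cerebellins (Cbln1, Cbln2, Cbln3 and Cbln4), the calsyntenins (Clstn1, Clstn2 and Clstn3) and the FLRT proteins (Flrt1, Flrt2 and Flrt3) are 3 small families of secreted or membrane-bound proteins that act at synapses. Their 10 genes were chosen by symbol from the 21667 named genes of the expression tables, and all 10 were measured in every mouse. The tables hold RNA-Seq of polyA-enriched RNA from somatosensory cortex, taken from adult males of a mixed SVeV-129; C57BL/6J background. The 3 control mice carried floxed Mef2c alleles and no Cre (Mef2cfl/fl). The 3 Mef2c conditional knockout mice (cKO) carried the same floxed alleles with Emx1-Cre (Mef2cfl/fl; Emx1-Cre). The floxed alleles are thus shared by both groups, and Cre is present in 1 of them. In the paper, Cre is a heterozygous knock-in at Emx1, so the groups also differ at that gene. Mouse 1 of each genotype was 14 weeks old, and mice 2 and 3 of each genotype were 12 weeks old. Emx1-Cre is active from embryonic stages in the lineage that gives rise to the excitatory neurons and many glia of the cortex and hippocampus, while cortical interneurons, microglia and endothelial cells come from other lineages. Because no mice with Cre alone were compared, an effect of Cre and an effect of the deletion cannot be told apart.

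Cerebellins are secreted relatives of complement C1q. They bind neurexins on the presynaptic side and, through them, bridge to delta-type glutamate receptors on the postsynaptic side, and Cbln1 is best known for holding parallel fibre synapses together in the cerebellum. Calsyntenins are transmembrane cadherin relatives that bind kinesin light chain and the adaptor Mint2 and that are cleaved by the same secretases as the amyloid precursor protein, and FLRTs are leucine-rich repeat proteins of the postsynaptic membrane that bind Unc5 receptors and latrophilins, which in turn bind teneurins. The comparison asked which of these 10 genes differ in level between Mef2c cKO and control cortex.

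Levels are given as CPM, the whole reads of a gene scaled to 1000000 reads of that mouse, and as CPM per kb of annotated exon wherever one gene is set against another. A gene was counted as changed when the Benjamini-Hochberg adjusted p of a limma fit over all 14624 genes tested was below 0.05 and the log2 fold change was beyond 0.3 in either direction. The read totals of the 6 libraries, as solved from the deposited values, lay between 19326365 (cKO 2) and 54128334 (cKO 3). Nearly all of these were reads counted in genes, so the totals are not sequencing depth. Pearson correlations of log2 CPM over 14603 genes lay between 0.992 and 0.995 for mice of one genotype and between 0.978 and 0.981 for mice of different genotypes, across genes, which are not independent replicates. The lengths behind the deposited RPKM values differed between mice for one and the same gene, from 2373 to 341548 bases for Flrt3 as the widest case, so all values here rest on read counts recovered from the RPKM. With 3 mice per genotype, the limma p-values rest on the spread between these mice. Each gene's variance was also drawn toward a trend over all genes tested.

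The targeted gene itself did not show the deletion at the level of the whole gene. Mef2c read 800, 772 and 800 CPM in control mice 1 to 3 and 1231, 1276 and 1468 CPM in cKO mice 1 to 3, a log2 fold change of 0.74 (SE 0.07, adjusted p = 0.000174). All cKO mice lay above all control mice. A count over the whole gene takes in exons outside the floxed part, so it does not check the genotype labels. Markers of cortical excitatory neurons were present, with summed CPM of the 7 genes between 4647 and 5340 in control and between 4960 and 5829 in cKO mice. Of the 7 genes, 4 rose, Neurod6 and Tbr1 among them, and 1, Emx1, fell. Most of the sum came from genes that did not pass, so it does not show these changes. Emx1, whose promoter drives Cre, read 16.5, 20.3 and 18.8 CPM in control and 5.71, 4.97 and 5.10 CPM in cKO mice. Because Cre sits in the Emx1 gene of cKO mice, an effect of the altered allele and an effect of the deletion cannot be told apart there.

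The summed CPM of 6 hippocampal marker genes lay between 68.7 and 83.0 in control mice and between 138 and 255 in cKO mice. Most of that sum was Wfs1, with means of 58.4 CPM in control and 138 CPM in cKO mice. Of the 5 genes that could be tested 3 rose (Spink8, Fibcd1 and Wfs1), and the others did not pass. Summed astrocyte markers were lower in cKO mice (3502 to 3773 against 3984 to 4259 CPM). Slc1a2 made up most of that sum. It went from a mean of 3407 to 2864 CPM and missed the fold cut-off (log2 fold change -0.25, adjusted p = 0.0461). Of the 6 astrocyte genes 2 rose, Gfap (1.37) and Aqp4 (0.73), and 1 fell, Aldh1l1 (-0.39). Summed microglial markers were lower too (178 to 183 against 188 to 209 CPM). There, 0 of 6 genes passed the cut-offs in limma or in limma voom, and 3 were lower at an unadjusted p below 0.05. The share of all genes tested at that unadjusted p is not given, so such counts, here and below, are a description. Of 6 cerebellar granule cell markers, Gabra6, Fat2 and Barhl1 were below 0.5 CPM in every mouse, and the summed level of the list was 83.9 to 104 CPM in control and 71.8 to 75.5 CPM in cKO mice. Most of that sum was Etv1, which fell from a mean of 73.0 to 54.0 CPM (log2 fold change -0.43, adjusted p = 0.0168), while Neurod1 (-0.33, adjusted p = 0.0888) and Zic2 (0.27, adjusted p = 0.283) did not pass. The summed levels of interneuron, oligodendrocyte, endothelial, thalamic and striatal markers overlapped between genotypes, with the lowest and the highest striatal sums (61.8 and 229 CPM) both in cKO mice. Single genes of these lists passed in both directions: the interneuron marker Sst (log2 fold change 0.57), the oligodendrocyte marker Mobp (0.64) and the thalamic marker Prkcd (0.55) rose, and the interneuron marker Pvalb (-0.80) and the thalamic marker Slc17a6 (-0.59) fell. The part of these differences in the results below was not tested. In tissue RNA, fewer cells of a type and less RNA per cell cannot be told apart.

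Of the 10 genes, 6 changed: Cbln1, Cbln2 and Clstn2 rose and Cbln4, Clstn1 and Flrt1 fell, while Cbln3, Clstn3, Flrt2 and Flrt3 did not pass. Over all genes tested, 13.6% passed the same cut-offs, 5.88% upward and 7.77% downward. The control and cKO values did not overlap for 8 of the 10 genes, 3 of them higher and 5 lower in cKO, beside 33.8% of all genes tested with a value in every mouse (16.3% higher and 17.5% lower). The median size of the log2 fold change, without its sign, was 0.39 over the 10 genes and 0.13 over all genes tested. The deposited RPKM, taken as they stand with their unequal lengths, gave 0.176% of 7974 genes past the cut-offs and 0 of the 8 genes of these families that could be tested there, of which 1, Cbln4, was lower at an unadjusted p below 0.05. The list was drawn up with results of these data known, so its counts are a description.

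**Figure D1:**
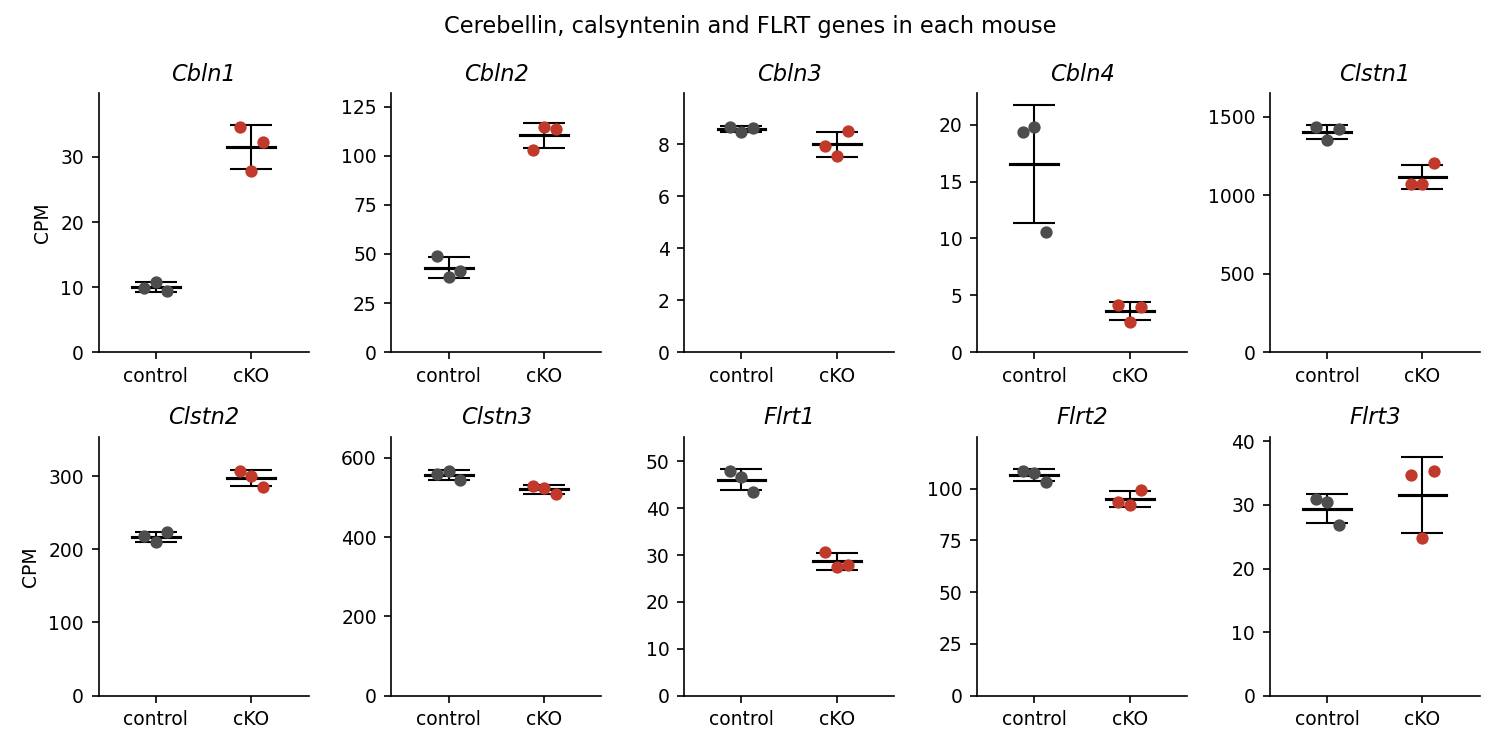
Level of each of the 10 genes (CPM, linear axes from 0) in 3 control mice (grey points) and 3 Mef2c cKO mice (red points), mice 1 to 3 from left to right, with the mean and SD in black. Cbln1 and Cbln2 stand higher in every cKO mouse and Cbln4 and Flrt1 lower, while the values of Cbln3 and Flrt3 overlap.

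Within the cerebellins, the secreted ligands moved in opposite directions. Cbln1 (ENSMUSG00000031654, minus strand at chr8:89992761-89996508 of NCBIM37, 4 blocks of exon) was found at 9.85, 10.9 and 9.37 CPM in control mice and at 34.6, 27.8 and 32.2 CPM in cKO mice. The lowest cKO mouse was more than double the highest control mouse. The mean rose from 10.02 ± 0.756 to 31.5 ± 3.42 CPM (SD, n = 3), 3.12-fold, with a log2 fold change of 1.64 (95% interval 1.41 to 1.87, adjusted p = 1.21e-05). By log2 fold change it was the 57th highest of the 14624 genes tested.

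Cbln2 (ENSMUSG00000024647), which like Cbln1 bridges neurexins and delta receptors, was the cerebellin with the most reads in both genotypes. It read 49.0, 38.5 and 41.4 CPM in control mice and 103, 115 and 113 CPM in cKO mice, without overlap. The mean rose from 43.0 ± 5.45 to 110 ± 6.30 CPM (SD, n = 3), 2.58-fold (log2 fold change 1.36, 95% interval 1.16 to 1.57, adjusted p = 1.64e-05).

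Cbln4 (ENSMUSG00000067578, minus strand at chr2:171861733-171868966 of NCBIM37, 3 exons), which binds neurexins and the netrin receptor Dcc, went the other way. Its level was 19.3, 19.8 and 10.6 CPM in control mice 1 to 3 and 4.15, 2.69 and 4.01 CPM in cKO mice, which correspond to 657, 977 and 545 reads against 136, 52 and 217 reads. Control mouse 3 lay well below the other controls, yet above every cKO mouse. The mean fell from 16.6 ± 5.19 to 3.62 ± 0.806 CPM (SD, n = 3), to 22.8% of control on the log2 scale of the fit (log2 fold change -2.13, 95% interval -2.70 to -1.57, adjusted p = 0.000425). It was the 55th lowest log2 fold change of all genes tested, the largest change in size among the 10 genes.

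Cbln3 (ENSMUSG00000040380, minus strand at chr14:56497757-56503093, 3 exons), which in the cerebellum is made by granule cells and needs Cbln1 to leave the cell, stayed near its control level. It read 8.64, 8.46 and 8.63 CPM in control mice and 7.91, 7.55 and 8.50 CPM in cKO mice, and the groups overlapped between the highest cKO and the lowest control mouse. The log2 fold change was -0.10 with a 95% interval of -0.33 to 0.12 (adjusted p = 0.546).

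**Figure D2:**
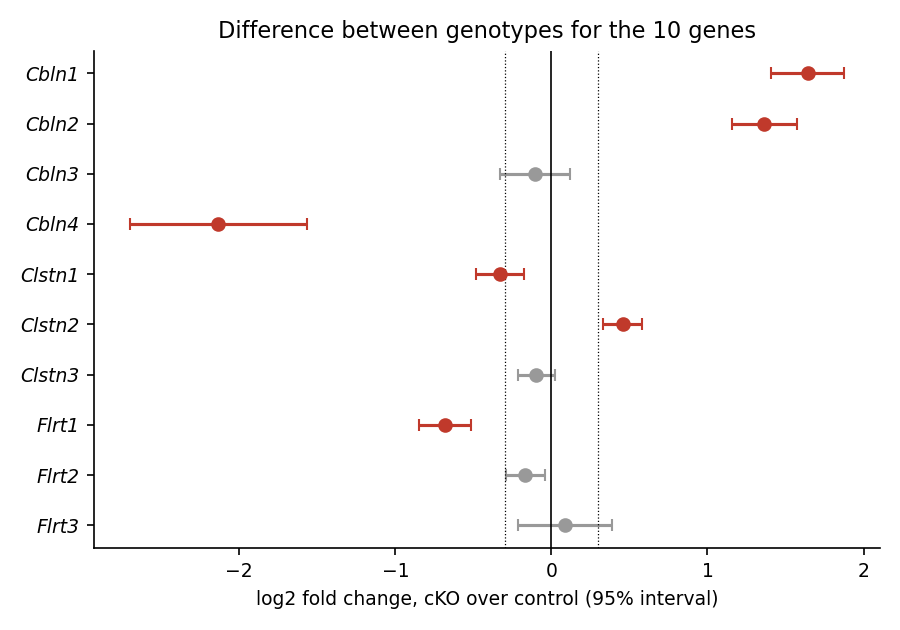
Log2 fold change (cKO over control) of the 10 genes with 95% intervals from the limma fit, in red where the gene passed both cut-offs and in grey where it did not, with dotted lines at the fold cut-off of 0.3. The cerebellins span from -2.13 for Cbln4 to 1.64 for Cbln1, whereas the 6 calsyntenins and FLRTs lie between -0.68 and 0.46.

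The calsyntenins are transmembrane proteins of neurons that are cleaved at the cell surface. Clstn1 fell, Clstn2 rose and Clstn3 did not pass. Clstn1 (ENSMUSG00000039953, plus strand at chr4:148960577-149023008, 20 blocks of exon), which links kinesin-1 to vesicles of the axon, had the highest level of all 10 genes. It read 1435, 1351 and 1421 CPM in control mice and 1070, 1075 and 1203 CPM in cKO mice, without overlap. The mean fell from 1402 ± 44.9 to 1116 ± 75.4 CPM (SD, n = 3), to 79.5% of control (log2 fold change -0.33, 95% interval -0.48 to -0.18, adjusted p = 0.00978). The interval takes in the fold cut-off, and leaving out 1 mouse at a time moved the log2 fold change between -0.39 and -0.30.

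Clstn2 (ENSMUSG00000032452, minus strand at chr9:97344814-97933600, 18 blocks of exon over 588787 bases) moved the other way. Its level was 218, 210 and 223 CPM in control mice and 307, 300 and 285 CPM in cKO mice, so that the groups were far apart relative to their spread. The mean rose from 217 ± 6.86 to 297 ± 11.5 CPM (SD, n = 3), 1.37-fold (log2 fold change 0.46, 95% interval 0.33 to 0.58, adjusted p = 0.000509).

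Clstn3 (ENSMUSG00000008153, minus strand at chr6:124380777-124414812, 21 blocks of exon), a postsynaptic member that binds neurexins, read 558, 567 and 543 CPM in control mice and 529, 523 and 509 CPM in cKO mice. The values did not overlap, but the difference was small: the log2 fold change was -0.10 with a 95% interval of -0.22 to 0.02 (adjusted p = 0.271).

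Among the FLRTs, Flrt1 (ENSMUSG00000047787, minus strand at chr19:7166504-7180219, 2 exons inside an intron of Macrod1 on the other strand, with no shared exon bases) fell. It read 48.0, 46.6 and 43.5 CPM in control mice and 30.7, 27.5 and 27.8 CPM in cKO mice, without overlap. The mean went from 46.1 ± 2.28 to 28.7 ± 1.77 CPM (SD, n = 3), to 62.3% of control (log2 fold change -0.68, 95% interval -0.85 to -0.52, adjusted p = 0.000257).

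Flrt2 (ENSMUSG00000047414, plus strand at chr12:96930436-97023425), a ligand of the repulsive receptor Unc5d in the developing cortex, read 109, 107 and 103 CPM in control mice and 93.5, 92.1 and 99.1 CPM in cKO mice. All cKO mice lay below all control mice, but neither cut-off was met (log2 fold change -0.17, 95% interval -0.29 to -0.04, adjusted p = 0.0808). Flrt3 (ENSMUSG00000051379, minus strand at chr2:140476650-140497205, within an intron of Macrod2 on the other strand), the postsynaptic ligand of latrophilin 3, read 31.0, 30.4 and 26.9 CPM in control mice and 34.7, 24.7 and 35.4 CPM in cKO mice. The cKO mice lay on both sides of the controls, with cKO 2 lowest of all 6 mice, and the log2 fold change was 0.09 with a 95% interval of -0.22 to 0.39 (adjusted p = 0.726).

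Since total read number cancels in a ratio of genes within one mouse, 3 ratios were compared as well, each with a two-sided exact permutation test over mice. The ratio of Cbln2 to Cbln4 reads was 2.54, 1.95 and 3.92 in control mice and 24.8, 42.6 and 28.3 in cKO mice, an 11.6-fold difference. The ratio of Clstn2 to Clstn1 reads went from 0.152, 0.155 and 0.157 in control mice to 0.287, 0.279 and 0.237 in cKO mice, 1.72-fold. The ratio of Flrt3 to Flrt1 reads was 0.645, 0.653 and 0.617 in control mice and 1.13, 0.898 and 1.27 in cKO mice, 1.71-fold. In all 3 ratios every cKO mouse lay above every control mouse, and each gave an exact permutation p = 0.10, which is the smallest that 3 against 3 mice allow and is 0.10 after adjustment over the 3 ratios. The pairs were picked with the direction of their genes known.

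**Figure D3:**
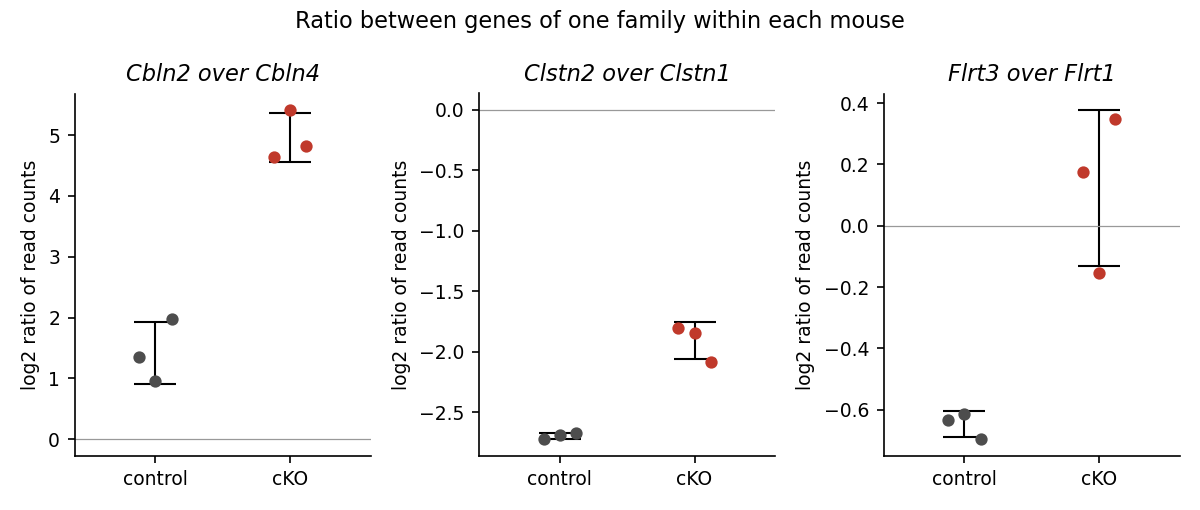
Log2 ratio of read counts between 2 genes of one family in each mouse (points, mice 1 to 3 from left to right), with error bars for the mean ± SD of each genotype and a grey line at equal counts. The 3 cKO mice lie above the 3 control mice in each panel. In the panel of Flrt3 over Flrt1, cKO 2 is the cKO mouse that lies below the line.

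Per kb of exon, the order of the 10 genes in control cortex was Clstn1 (300.7 ± 9.63 CPM per kb, SD, n = 3), Clstn3 (112 ± 2.50), Clstn2 (38.1 ± 1.21), Cbln2 (14.9 ± 1.88), Flrt2 (13.8 ± 0.359), Flrt1 (7.86 ± 0.389), Flrt3 (6.05 ± 0.458), Cbln4 (5.71 ± 1.79), Cbln1 (3.89 ± 0.293) and Cbln3 (1.82 ± 0.0216). Of neighbours in that order, the mice of Cbln2 and Flrt2, of Flrt3 and Cbln4 and of Cbln4 and Cbln1 overlapped. In cKO cortex the calsyntenins and Cbln2 kept the first 4 places, with Cbln2 now at 38.1 ± 2.18 CPM per kb, and Flrt2 (12.3 ± 0.484) and Cbln1 (12.2 ± 1.33) followed and overlapped. Flrt3 (6.49 ± 1.22) and Flrt1 (4.90 ± 0.302) overlapped as well, and Cbln3 (1.69 ± 0.101) and Cbln4 (1.25 ± 0.278) came last.

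The make-up of the cerebellin family shifted with genotype. In control mice Cbln2 gave 56.7% ± 5.21, Cbln4 21.5% ± 5.38, Cbln1 14.9% ± 1.62 and Cbln3 6.98% ± 0.782 of the cerebellin CPM per kb (SD, n = 3). In cKO mice Cbln2 gave 71.5% ± 3.24, Cbln1 23.0% ± 2.66, Cbln3 3.17% ± 0.132 and Cbln4 2.34% ± 0.520. The summed level of the family went from 26.3 ± 2.92 to 53.3 ± 1.41 CPM per kb, a ratio of 2.03. Cbln3 was at 1.82 CPM per kb in control and 1.69 in cKO mice, so its smaller share reflects the larger family sum.

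In the calsyntenins, whose sum was 451 ± 9.02 CPM per kb in control and 396 ± 12.3 in cKO mice, Clstn1 went from 66.7% ± 0.841 to 60.4% ± 2.19 and Clstn2 from 8.45% ± 0.178 to 13.2% ± 0.891, while Clstn3 was at 24.8% ± 0.945 and 26.4% ± 1.3. In the FLRTs, whose sum was 27.7 ± 1.20 in control and 23.7 ± 1.72 CPM per kb in cKO mice, Flrt1 went from 28.4% ± 0.213 to 20.7% ± 1.41, and Flrt2 held the largest share in both genotypes (49.8% ± 0.886 and 52.0% ± 2.75). Flrt3 was at 21.8% ± 0.732 in control and 27.3% ± 3.33 in cKO mice. These shares depend on the exon length used for each gene and carry no test.

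**Figure D4:**
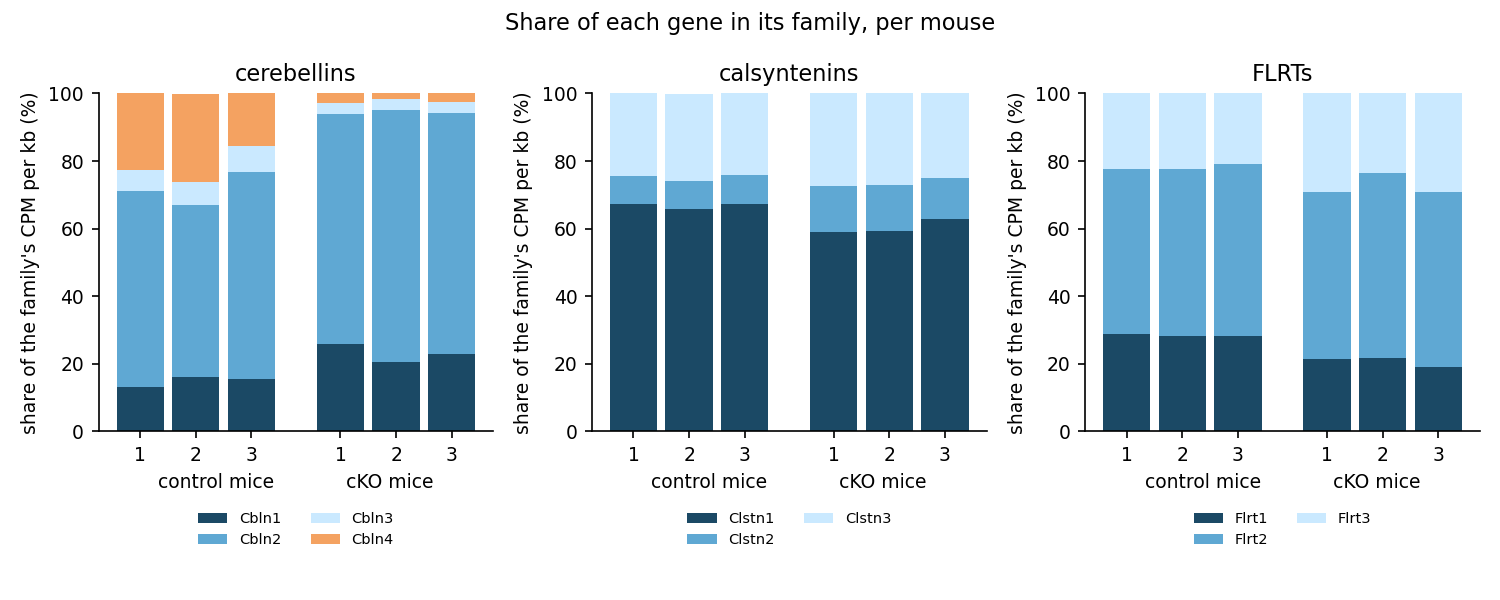
Share of each gene in the CPM per kb of exon of its family (stacked bars, percent), one bar per mouse, control mice 1 to 3 on the left and Mef2c cKO mice 1 to 3 on the right of each panel. Cbln4 shrinks from between 15.6% and 26.1% of the cerebellins in control mice to between 1.75% and 2.74% in cKO mice.

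Of the changed genes, Cbln4, Clstn1 and Clstn2 have a start site in RefSeq's promoter table of GRCm38.p6, as do Cbln3, Clstn3, Flrt2 and Flrt3, 7 of the 10 genes in all. The 250 bases before the start are shown for 2 genes that fell and 1 that rose, 5′ to 3′ on the strand of the gene, with capitals for GGGCGG (the GC box, CCGCCC on the other strand) and TGACGTCA (the cyclic AMP response element, which reads the same on both strands). Cbln4 is at chr2:172043467-172043716 on the minus strand, Clstn1 at chr4:149586218-149586467 on the plus strand and Clstn2 at chr9:98033168-98033417 on the minus strand.
Cbln4: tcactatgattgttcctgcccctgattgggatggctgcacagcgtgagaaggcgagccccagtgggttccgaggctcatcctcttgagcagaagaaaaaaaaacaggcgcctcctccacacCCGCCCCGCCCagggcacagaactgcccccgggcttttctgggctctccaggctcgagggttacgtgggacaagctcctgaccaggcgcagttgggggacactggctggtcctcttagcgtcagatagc
Clstn1: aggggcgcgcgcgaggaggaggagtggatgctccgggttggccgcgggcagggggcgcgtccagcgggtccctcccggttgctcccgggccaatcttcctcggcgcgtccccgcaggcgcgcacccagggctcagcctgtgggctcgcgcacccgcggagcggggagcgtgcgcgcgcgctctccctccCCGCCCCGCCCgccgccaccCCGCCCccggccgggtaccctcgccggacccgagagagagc
Clstn2: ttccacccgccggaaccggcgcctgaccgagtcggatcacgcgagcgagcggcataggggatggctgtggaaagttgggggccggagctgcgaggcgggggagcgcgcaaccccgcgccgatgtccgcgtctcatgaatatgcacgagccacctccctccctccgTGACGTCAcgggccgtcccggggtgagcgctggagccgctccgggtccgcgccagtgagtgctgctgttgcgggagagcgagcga
The Cbln4 window held 2 GC boxes, which overlap by a base and begin 129 and 124 bases before the start, and the Clstn1 window held 3, of which those 61 and 56 bases before the start overlap and the third lies at 41. A GC box was found in 32.7% of all 32851 windows of this kind. The Clstn2 window held 1 TGACGTCA, 85 bases before the start, a match that 1.55% of all windows contained. The MEF2 motif was searched on both strands by its usual degenerate consensus and had no match in the 8 windows of the 7 genes (2 for Clstn3), beside 2.92% of all windows. That says only that these letters are not in these windows. The share of G and C was 60.8% in the Cbln4 window, 80% for Clstn1 and 70.8% for Clstn2.

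Among the partner genes tested, Nrxn3, C1ql2 and Unc5d fell, and Apba1, Tenm3, Tenm4 and Fgfr1 rose. Of 5 cerebellin partners tested, 1 fell and 0 rose in limma and in limma voom, while 1 was higher at an unadjusted p below 0.05. Nrxn3, a presynaptic receptor for cerebellins and many other ligands, read 459, 520 and 553 CPM in control mice and 344, 375 and 344 CPM in cKO mice (log2 fold change -0.53, SE 0.08, adjusted p = 0.00144). Every cKO mouse was below every control mouse.

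The other cerebellin partners did not pass. Nrxn2 had the lowest of their log2 fold changes (-0.17, adjusted p = 0.192). Dcc, the netrin receptor that Cbln4 binds, had the highest (0.31, SE 0.11, adjusted p = 0.104), with 84.7, 67.3 and 63.2 CPM in cKO mice against 51.0, 59.5 and 61.9 CPM in control mice.

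Of the C1q-like relatives of the cerebellins and their adhesion receptors, 1 of 6 tested fell and 0 rose in limma and in limma voom, while 2 were higher at an unadjusted p below 0.05. C1ql2 read 3.59, 2.61 and 2.89 CPM in control mice and 0.855, 0.983 and 1.48 CPM in cKO mice (log2 fold change -1.40, SE 0.22, adjusted p = 0.00245). Every cKO mouse was below every control mouse. Of those that did not pass, C1ql1 had the highest log2 fold change (0.43, adjusted p = 0.0808) and C1ql3 the lowest (-0.15, adjusted p = 0.382). The seventh, C1ql4, had reads in 1 of the 6 mice, at 0.0611 CPM in cKO 1, and was not tested.

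Of 10 calsyntenin partners and processing enzymes, 1 rose and 0 fell in limma and in limma voom, while 4 were higher and 1 was lower at an unadjusted p below 0.05. No share over all genes at that unadjusted p stands beside these counts. Apba1, which codes for the neuronal adaptor Mint1, read 232, 219 and 221 CPM in control mice and 296, 321 and 328 CPM in cKO mice (log2 fold change 0.49, SE 0.06, adjusted p = 0.000489). Apba2, whose product Mint2 is the adaptor that binds calsyntenins, had a log2 fold change of 0.00 (95% interval -0.13 to 0.13) and is named after its value was seen. Apba3 had the highest log2 fold change of those that did not pass (0.28, adjusted p = 0.146) and App, the amyloid precursor protein, the lowest (-0.21, adjusted p = 0.0793). 

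Of 13 FLRT partners, 3 rose and 1 fell. Unc5d, a repulsive netrin receptor that binds Flrt2 and is enriched in layer 4 of sensory cortex, read 88.3, 94.7 and 97.2 CPM in control mice and 26.2, 30.9 and 30.0 CPM in cKO mice, a fall to 31.1% of control (log2 fold change -1.68, SE 0.08, adjusted p = 2.47e-06). Its paralogs did not pass: Unc5c had the lowest log2 fold change of the others (-0.27, adjusted p = 0.119), and Unc5a, named after its value was seen, met the adjusted p but not the fold cut-off (0.22, adjusted p = 0.0205).

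The partners that rose were the teneurins Tenm3 and Tenm4 and the growth factor receptor Fgfr1. Tenm3, a homophilic adhesion protein that also binds latrophilins, read 130, 144 and 122 CPM in control mice and 215, 179 and 271 CPM in cKO mice (log2 fold change 0.73, SE 0.13, adjusted p = 0.00486). The cKO mice spread widely but lay above all controls. Tenm4 read 127, 141 and 144 CPM in control mice and 201, 189 and 188 CPM in cKO mice (log2 fold change 0.49, SE 0.06, adjusted p = 0.00079). Fgfr1, whose signalling FLRTs modulate, read 58.8, 59.7 and 63.9 CPM in control mice and 78.9, 70.8 and 80.9 CPM in cKO mice (log2 fold change 0.34, SE 0.07, adjusted p = 0.00968), and missed the fold cut-off without cKO 3 (0.30).

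Tenm1 had the highest log2 fold change of the FLRT partners that did not pass (0.36, adjusted p = 0.0835), with 46.3, 32.1 and 39.9 CPM in cKO mice against 28.3, 30.2 and 32.6 CPM in control mice. Without cKO 2, the mouse with the fewest reads, Tenm1 (0.50) and Robo1 (0.31) passed and 5 FLRT partners rose, and without cKO 1 Unc5c passed too (-0.37). Over the 4 lists, 7 of 34 partners tested passed, 4 higher and 3 lower in cKO mice, beside 13.6% of all genes, and their median log2 fold change was 0.09 beside 0.01 over all genes tested.

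**Figure D5:**
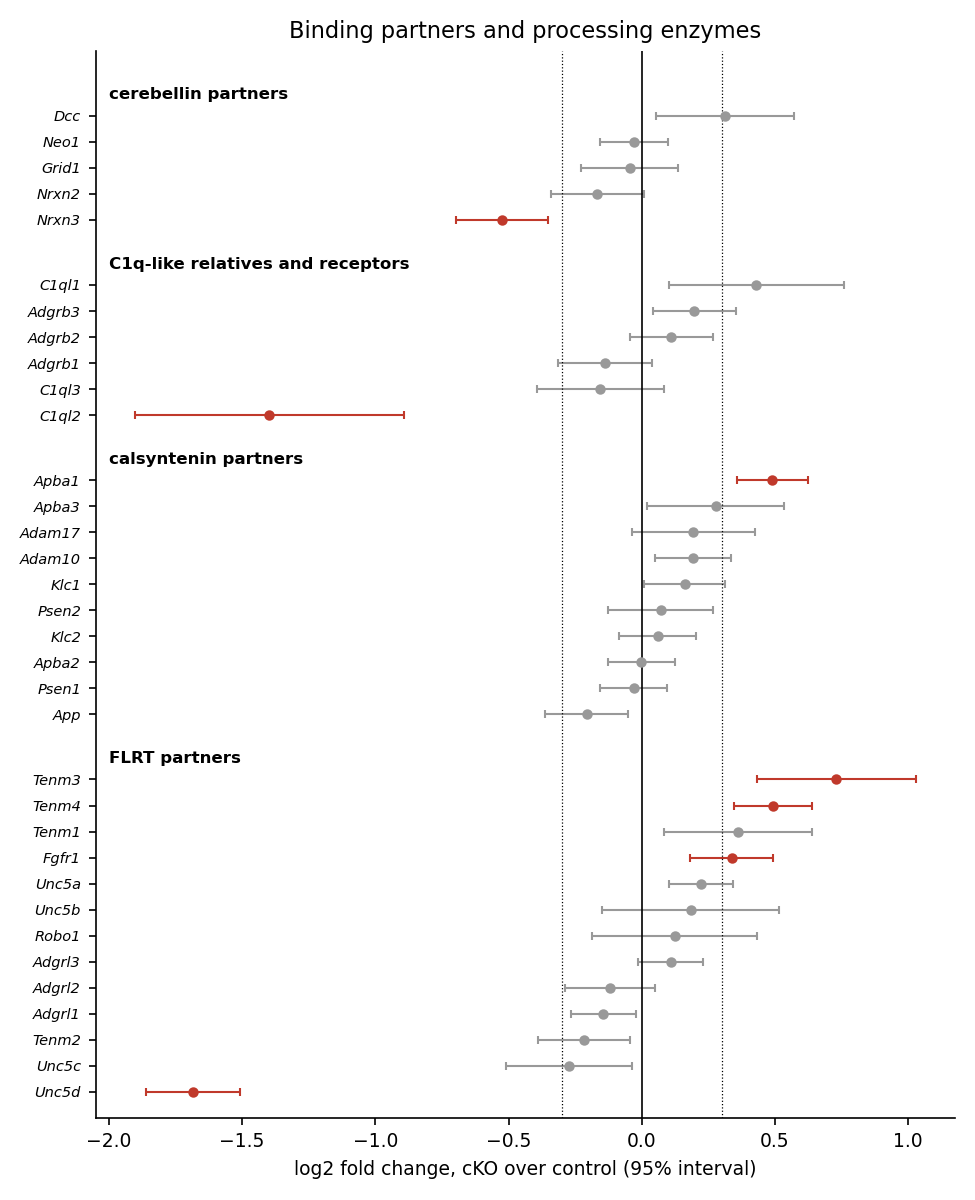
Log2 fold change (cKO over control) with 95% intervals for the 34 partner genes tested, grouped by list, in red where both cut-offs were met, with dotted lines at the fold cut-off of 0.3. Unc5d and C1ql2 lie furthest to the left and Tenm3 furthest to the right.

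For each changed gene, the 3 genes whose log2 CPM followed it most closely were sought among 14602 others, as the smallest root mean square difference over the 6 mice after the control mean was taken off. Closest to Cbln1 were Pkp2 (0.0981), Sulf1 (0.111) and Cdh9 (0.131), which read from 2.12 to 19.8 CPM in control mice and from 6.42 to 63.9 CPM in cKO mice. Closest to Cbln2 were Wipf3 (0.114), Zfp189 (0.128) and Neurod6 (0.129), a transcription factor of cortical and hippocampal excitatory neurons that read 51.5, 35.1 and 38.3 CPM in control mice and 114, 99.0 and 101 CPM in cKO mice. Control 1 was the highest control mouse for Cbln2 and for all 3 of these genes. Among cKO mice, cKO 1 was the highest for Neurod6 but the lowest for Cbln2.

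For Cbln4 the distances were larger, in a measure that is not scaled to a gene's own spread between mice. The genes nearest to Cbln4 were Tekt2 (0.213), Hfe2 (0.252) and Chrnb3 (0.264), all at or below 3.81 CPM in every mouse. Control 3 was the lowest control mouse for Cbln4 and for all 3 of these genes. Closest to Clstn1 were Eogt (0.0265), Fmnl3 (0.0290) and Megf9 (0.0316), which fell by 0.35, 0.30 and 0.34 on the log2 scale, Fmnl3 just past both cut-offs (adjusted p = 0.0372). Closest to Clstn2 were Dgka (0.0216), Adcy9 (0.0429) and Tub (0.0504), with log2 fold changes of 0.45, 0.50 and 0.50. Closest to Flrt1 were Gfra2 (0.0391), Foxp1 (0.0474) and Diaph2 (0.0533), which fell by 0.70, 0.71 and 0.72 on the log2 scale. The measure uses the same 6 mice as the fold changes, so it orders genes and tests nothing.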

How the data were processed

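The authors isolated polyA RNA from frozen somatosensory cortex, made directional libraries, aligned reads to mm9 with TopHat and Bowtie, counted genes with HTSeq and deposited 1 table of RPKM per mouse (versions not given in the sources used here). Whether counting used strand is not stated. In each deposited RPKM table the lengths repeated along the gene order, with a period of 65 to 296 genes, so a gene's length differed between mice. Whole reads and the total of each library were solved from the RPKM values. 99.94% to 99.99% of values above 0 were recovered. The recovered reads of named genes summed to 99.88% to 99.92% of the solved totals, which are the read totals given in the report. The method was tested on simulated data. Those data were built with the totals and lengths solved here, so the test cannot show whether these are right for the deposited values. 92 rows without a gene name (at most 0.0794% of reads) were left out.

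CPM is recovered reads scaled to a solved total of 1000000. Genes with CPM above 0.5 in every mouse of at least 1 genotype, and at least 2 recovered values in each, entered limma 3.58.1 (R 4.3.3; lmFit, then eBayes with a variance trend) on log2(CPM + 0.1), which understates changes of low genes. Calls needed an adjusted p below 0.05 and a log2 fold change beyond 0.3. Exon lengths came from the NCBIM37 annotation.

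The members and lists were chosen with earlier results of these data known. Named were all 10 genes, Mef2c, every partner gene past the cut-offs, of the rest of each list the highest and lowest log2 fold change, and the 3 nearest genes of each changed member. Some cerebellin partners, left out of the counts of partners, and some marker genes are not reported here. Alternatives covered scaling, pseudocount, filter, variance model, design, unit, recovery, call rule and each mouse left out. The alternative exon length and the left-out mice for shares and ratios were added after seeing the data.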

Additional observations from a re-analysis of the deposited data

How the results depend on the processing

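Under 17 alternative fits the log2 fold changes of the 10 genes gave 168 values, of which 162 kept their direction and their side of the cut-offs. The deposited RPKM taken as they stand gave most of the exceptions: 7974 genes could be tested, 9 rose and 5 fell, and of the 8 members and 31 partners tested 0 passed, 1 member and 2 partners being past an unadjusted p of 0.05. There Cbln2 was at 0.11, Cbln4 at -2.51, Clstn1 at -0.66, Flrt1 at -0.67 and Clstn2 at -1.14, and the direction also turned for Dcc (-1.32), C1ql3 (0.73), Unc5c (0.41), Unc5a (-1.14), Wipf3 (-0.54) and Adcy9 (-2.05). By construction this setting carries the lengths that differ between mice. Flrt3 ranged from -0.0043 (without cKO replicate 3) to 0.25 (without cKO replicate 2) with each mouse left out. Leaving out each mouse in turn gave 687 to 871 genes higher and 896 to 1080 lower in cKO (860 and 1136 with all mice), 3 and 3 of the 10 genes each time, and 2 to 5 FLRT partners higher and 1 to 2 lower. With the adjusted p alone, 1031 genes were higher and 1349 lower. The paper compared cKO mice with control littermates, but which mice shared a litter is not given in the sources used here. Deviations of same-numbered mice correlated at -0.18, -0.11 and -0.09, and 0 of 6 mice correlated best with its own number. With so few mice, this cannot show whether the numbers pair litters. With the replicate number as a block 1695 genes passed against 1996 without it, 1663 of them shared, and the block changed no call among the 10 genes or the named partners. With the length of the longest coding transcript, shares became 2.83% for Cbln3 in cKO, 62.5% and 55.8% for Clstn1 in control and cKO, 9.88% and 15.2% for Clstn2, 27.6% and 28.9% for Clstn3, 26.0% and 18.7% for Flrt1, and 24.4% for Flrt3 in control. Fmnl3 missed the cut-offs under 10 alternatives and Megf9 without cKO replicate 1 (-0.29). The ratios within mice kept their direction with each mouse left out. The lowest read total, in cKO 2, rests Cbln4 on 52 reads there.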
